A study of Mus musculus with 5 samples.

Results

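Pax5, its neighbour Zcchc7, and the genes of the octamer-binding factors Oct-1 (Pou2f1) and Oct-2 (Pou2f2) with their B-cell coactivator OCA-B (Pou2af1) were examined for peaks of H3K27ac, acetylated lysine 27 of histone H3. The genes were chosen by name, with earlier results of these data known. They are 5 of 21887 protein-coding genes, and Zcchc7 was included because it is known to hold enhancers of Pax5. Together they had 59 of the 22948 peaks in the list within 100 kb of, at or inside them. The cells were mouse bone marrow cells that carried CD45.2, Sca1 and Kit but no lineage markers, called HSC/MPP (stem cells and multipotent progenitors) in the labels. All libraries came from cells whose genotype is given as Mll3/4 deleted, and how the genes were deleted is not given in the sources used here. There were 4 H3K27ac libraries, made by ChIPmentation (chromatin immunoprecipitation with adapters inserted by the Tn5 transposase), and 1 input library. A single list of peaks called over input stood for all of them. It gives no value for a single library, so no error between replicates and no difference from an undeleted genotype could be measured. The series title names B-cell priming as something that MLL3 and MLL4 oppose, and these loci are part of the B-lineage programme.

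Pax5 encodes the paired-box factor that commits progenitors to the B lineage, turning on B-cell genes and turning off genes of other lineages. Oct-1 is made in most cell types, whereas Oct-2 and OCA-B are found mainly in lymphoid cells. OCA-B has no strong DNA binding of its own and joins Oct-1 or Oct-2 on the octamer element, which lies in immunoglobulin promoters and enhancers. Zcchc7 encodes a zinc-knuckle protein of a complex that hands nuclear RNA to the exosome. H3K27ac marks active promoters and enhancers, and the signal value given for each peak is the authors' ratio of H3K27ac enrichment over background.

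Pax5, Zcchc7, Pou2af1 and Pou2f1 each had a peak within 1 kb of a gene end, on the side where transcription starts, and Pou2f2 had none at either end. These were 4 of the 5 genes. Over all protein-coding genes, 36.2% carried an end peak. Given how the genes were chosen, the comparison is a description only. The strongest such peak was at Pou2af1, with a signal value of 11.3, followed by Pou2f1 with 10.4, Pax5 with 8.45 and Zcchc7 with 8.20. Since the list has no replicate values, whether neighbours in this order differ beyond error was not measurable. All 5 genes had a peak in the body away from the ends, against 16.6% of protein-coding genes, but the numbers were far apart. Pax5 had 30, Zcchc7 4, Pou2af1 3, Pou2f1 2 and Pou2f2 1. The 16.6% takes no account of gene length. The median protein-coding gene spans 17.2 kb, whereas these 5 span 26.4 to 186 kb. Of the 2429 protein-coding genes of at least 100 kb, 1218 had at least 1 body peak. The flanks of 100 kb held a peak for 4 of the 5 genes, Pou2f1 being the exception, and for 72.2% of protein-coding genes.

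**Figure D1:**
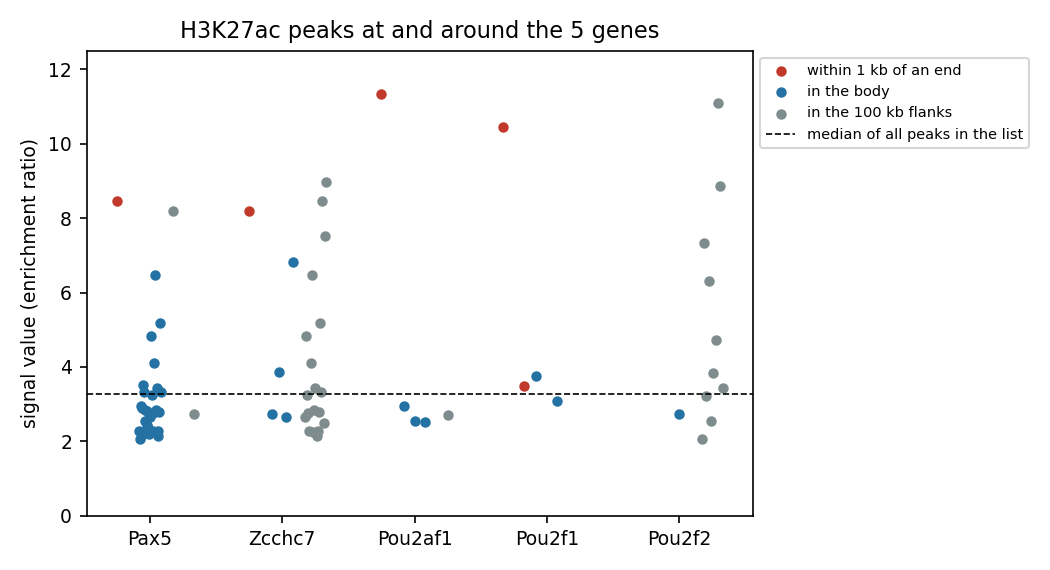
Signal value (vertical axis, the authors' enrichment ratio) of every peak within 1 kb of an end, in the body or in the 100 kb flanks of the 5 genes (horizontal axis). Each point is a peak, a peak shared by the flank of one gene and the body of another is drawn for both, and the dashed line is the median of the whole list, 3.27; the strongest end peaks of 4 genes lie between 8.20 and 11.3, while most body peaks of Pax5 lie below the line.

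The sequence before each listed start with a peak within 1 kb is shown, because these are the promoter windows next to the called H3K27ac. They are the 250 bases before the start in the RefSeq promoter table (GRCm38.p6), 5′ to 3′ in the direction of the gene. Capitals mark matches to the motifs searched.
Pax5, chr4:44710695-44710944, minus strand: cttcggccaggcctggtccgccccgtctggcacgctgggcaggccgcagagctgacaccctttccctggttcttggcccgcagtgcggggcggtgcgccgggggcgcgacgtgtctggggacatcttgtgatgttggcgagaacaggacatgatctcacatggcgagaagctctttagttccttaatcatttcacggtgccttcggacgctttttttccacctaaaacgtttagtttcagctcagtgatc
Zcchc7, chr4:44756309-44756558, plus strand: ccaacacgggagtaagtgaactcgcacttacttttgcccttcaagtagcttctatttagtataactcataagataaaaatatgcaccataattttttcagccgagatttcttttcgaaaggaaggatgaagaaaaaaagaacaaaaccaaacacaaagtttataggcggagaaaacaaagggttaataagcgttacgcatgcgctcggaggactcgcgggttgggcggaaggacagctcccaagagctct
Pou2af1, chr9:51213440-51213689, plus strand: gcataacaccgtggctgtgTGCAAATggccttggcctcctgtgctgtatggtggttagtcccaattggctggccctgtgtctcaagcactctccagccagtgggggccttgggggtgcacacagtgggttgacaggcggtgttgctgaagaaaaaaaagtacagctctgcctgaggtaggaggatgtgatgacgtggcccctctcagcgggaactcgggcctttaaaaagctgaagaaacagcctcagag
Pou2f1 first start, chr1:166002635-166002884, minus strand: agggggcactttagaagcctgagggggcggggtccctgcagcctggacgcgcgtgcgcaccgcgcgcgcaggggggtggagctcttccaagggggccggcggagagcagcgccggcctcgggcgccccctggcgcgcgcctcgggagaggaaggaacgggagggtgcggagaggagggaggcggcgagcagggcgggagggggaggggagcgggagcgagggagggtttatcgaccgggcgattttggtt
Pou2f1 internal start, chr1:165934949-165935198, minus strand: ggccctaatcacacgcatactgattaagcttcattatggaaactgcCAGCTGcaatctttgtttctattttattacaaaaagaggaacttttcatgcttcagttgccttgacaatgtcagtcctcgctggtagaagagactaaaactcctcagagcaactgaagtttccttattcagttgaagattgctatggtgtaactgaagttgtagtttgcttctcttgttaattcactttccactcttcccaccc

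These windows were not alike in composition. The Pou2f1 window before its first start had 29 CpG dinucleotides and 74.4% G or C, the Pax5 window 19 CpG and 58.8%, and the Zcchc7 window 12 CpG and 42.0%. The Pou2af1 window had only 5 CpG, with 56.0% G or C, yet it lay under the strongest peak of the group. For comparison, the median was 17 CpG over the 7957 listed starts of protein-coding genes with a peak within 1 kb, and 5 CpG over the 13306 without one. The Pax5 and Pou2af1 windows lay under a peak over all 250 bases. Only 25 bases of the Zcchc7 window did, since its peak began next to the start and ran into the gene. At Pou2f1 no base did: the window fell into a gap of 478 bases between a strong peak inside the gene and a weak one before it.

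Motifs were sought in these 5 windows and in those of the other 2 listed starts, one inside Pou2f1 and one in Pou2f2. The octamer ATGCAAAT (reverse complement ATTTGCAT), the element bound by the Oct factors, was in 0 of the 7 windows and in 1.60% of all 32851 promoter windows of this length. A form without its first base, TGCAAAT (reverse complement ATTTGCA), was added after the sequences were seen. It occurred once, in the Pou2af1 window, starting 231 bases before the start, and in 3.56% of all windows. It lies inside the octamer, so each octamer is also counted there. The E-box CAGCTG, bound by E proteins, occurred once, 204 bases before the internal start of Pou2f1, and in 13% of all windows. The core of the EBF1 palindrome, CCCNNGGG, was in 0 of the 7 and in 11.8% of all windows, and the PU.1 box GAGGAAGT (reverse complement ACTTCCTC) was in 0 of the 7 and in 2.44%. Both strands were read. These matches describe letters, not bound sites.

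At Pax5, gene ID 18507, chromosome 4 from 44524748 to 44710694, the start carried a broad peak. It ran from 44706375 to 44714830 with a signal value of 8.45 and a −log10 q of 26.3. With 8456 bp it was wider than 99.7% of the 8341 peaks at ends of protein-coding genes and the 48th widest peak of the list. It reached 4.14 kb ahead of the start and 4.32 kb into the gene, and its summit lay 276 bp inside the gene. Of the 7929 genes that carried an end peak, 12.1% had one stronger than that of Pax5. The peak was therefore set apart by its width more than by its height. The promoter table lists 1 start for Pax5, so any other first exon was not placed.

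The body of Pax5 held 30 further peaks. Only 11 of 21887 protein-coding genes, Pax5 included, had at least as many. The others were Arid1b (68), Foxp1 (66), Zmiz1 (55), Ebf1 (53), Bach2 (51), Msi2 (43), Nedd9 (41), Rftn1 (36), Sipa1l1 (36) and Tcf4 (35). Ebf1 and Bach2 encode B-lineage factors, but whether these genes share a lineage role was not tested. The highest number of any gene was 68, and the median gene had 0. The gene is 186 kb long, and longer genes have more room for peaks. Among the 2429 protein-coding genes of at least 100 kb, the median was 1 body peak, and 8 genes, Pax5 included, had as many body peaks per 100 kb of length as its 16.1. Peaks covered 22.0% of the Pax5 gene, and 12 of the 2429 long genes, Pax5 included, had at least that share. The median share of those genes was 0.322%.

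**Figure D2:**
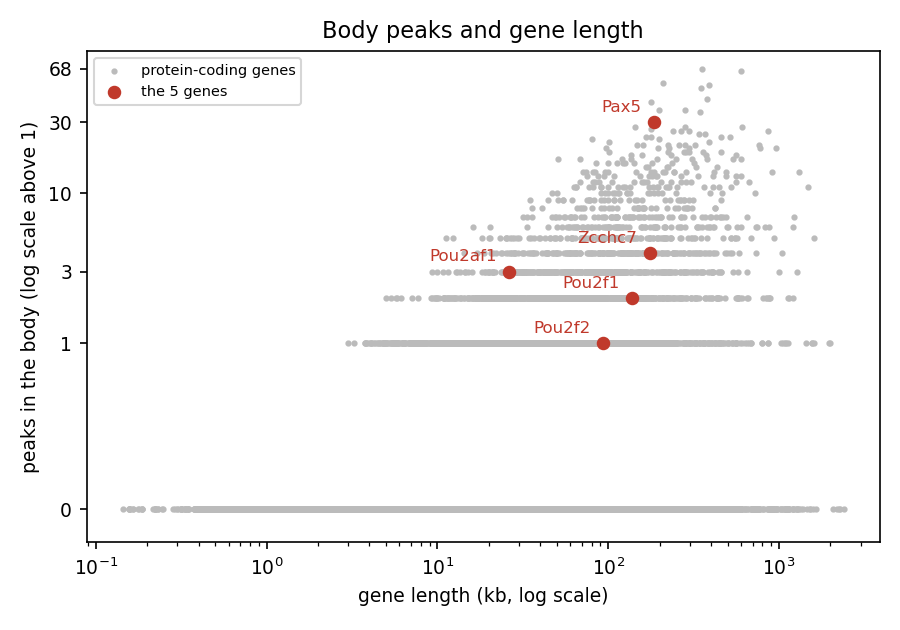
Number of peaks in the body of each protein-coding gene (vertical axis, log scale above 1) against gene length in kb (horizontal axis, log scale). Grey points are the 21887 genes and red points the 5 genes described; Pax5, with 30, lies near the upper edge for its length, and the other 4 genes, with 1 to 4, lie among many genes of similar length.

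Many as they were, the body peaks of Pax5 mostly had low signal values, close to those of peaks at no end in general. The values at Pax5 ran from 2.05 to 6.46 with a median of 2.77. The median was 2.94 over the 14607 peaks of the list at no end of a protein-coding gene. A q-value above 0.05 was attached to 10 of the 30, or 33.3% (95% Wilson interval 19.2% to 51.2%, counting error only), and to 29.1% of all peaks at no end. A −log10 q of at least 5 was reached by 4 of the 30, or 13.3% (5.31% to 29.7%), against 23.5% of all peaks at no end. These intervals take the 30 peaks as independent, which neighbouring peaks of 1 gene need not be, so no difference from all peaks at no end was tested. With a q-value of at most 0.05, 20 body peaks were left at Pax5, and 15 genes, Pax5 included, had as many. When −log10 q had to reach 5, 4 were left, and 61 genes had as many. When peaks within 1 kb of each other were merged, the 30 became 16 and 26 genes had as many. The stricter and merged lists lowered the counts of other genes as well: the highest count of any gene went from 68 to 12 with the stricter q-value and to 42 after merging.

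The 4 stronger body peaks had their summits within 49.5 kb of the start of Pax5, in a gene of 185.9 kb. The strongest, at 44672781 to 44674836, reached a signal value of 6.46 and a −log10 q of 16.2, with its summit 37.4 kb into the gene. It was stronger than 94.6% of peaks at no end. A peak from 44671328 to 44672604 with a signal value of 4.10 adjoined it. The next strongest ran from 44699432 to 44703296, with a signal value of 5.17 and its summit 7.76 kb into the gene. It also reached an end of the non-coding gene 5730488B01Rik, which lies inside Pax5. The widest, from 44658585 to 44664237, was 5653 bp wide with a signal value of 4.82 and a summit 49.5 kb into the gene, and was wider than 99.3% of peaks at no end.

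Along the gene, the peaks thinned out towards its far end. The gene was cut into 4 equal lengths from the start, and by summit the first held 13 of the body peaks, the second 7, the third 9 and the last 1. The summed width of the peaks was 16.2 kb in the first length, 9.73 kb in the second, 10.2 kb in the third and 0.484 kb in the last. The strongest signal values in these lengths were 6.46, 4.82, 3.50 and 2.29. In the third length a run of peaks from 44582625 to 44590783 included 1 of 2284 bp with a signal value of 3.50. The last 19.9 kb of the gene and the whole 100 kb beyond its far end had no peak. The table gives no exons, so no peak could be placed in an intron or exon, and the known enhancer in an intron of Pax5 was not placed.

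**Figure D3:**
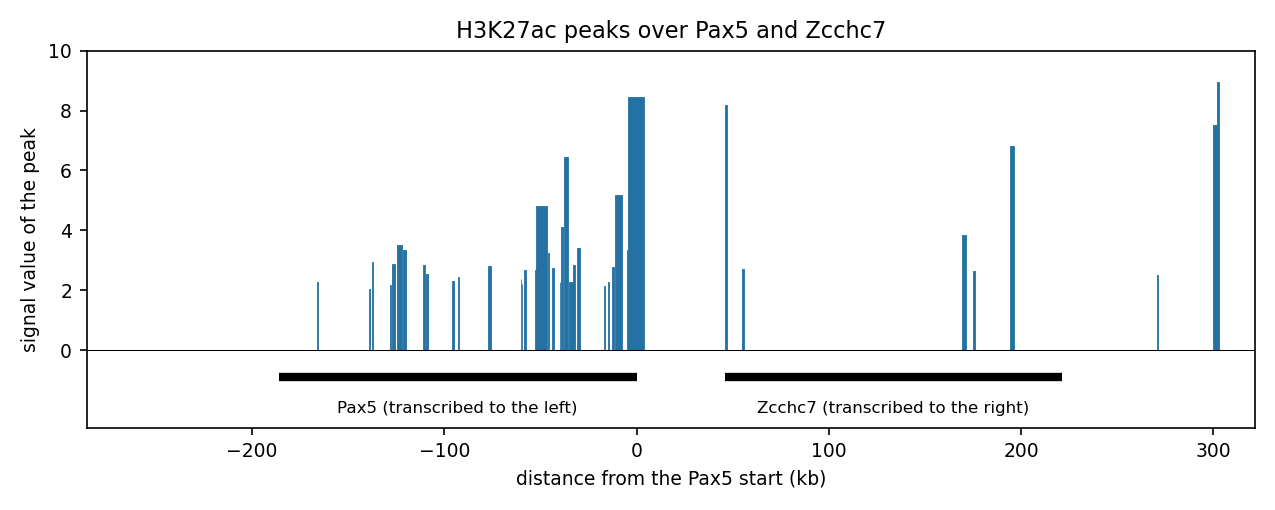
Peaks over Pax5, Zcchc7 and 100 kb on either side, with distance from the Pax5 start in kb on the horizontal axis and signal value on the vertical axis. Each block spans the width of a peak and black bars are the genes; peaks crowd over the side of Pax5 near its start, while Zcchc7 has a peak at its start and a few near its far end, the strongest of them at 6.82.

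Zcchc7, gene ID 319885, chromosome 4 from 44756558 to 44932215, is transcribed away from Pax5, and the starts of the genes are 45.9 kb apart. Its start carried a peak from 44756534 to 44758013 with a signal value of 8.20 and a −log10 q of 24.4. This peak was close in signal value to that of Pax5, but at 1480 bp far narrower, wider than 71.4% of peaks at ends. No peak lay in the 41.7 kb between the promoter peaks of the genes. Inside Zcchc7, a peak at 44765553 to 44766361 reached a signal value of 2.72. A gap of 113 kb to the next peak followed it, the widest between neighbouring peaks of the region.

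The other 3 body peaks of Zcchc7 lay towards its far end. The strongest, at 44905101 to 44907099, reached a signal value of 6.82 and a −log10 q of 17.97, stronger than 95.4% of peaks at no end. It was stronger than each of the 30 body peaks of Pax5. Its summit lay 150 kb into Zcchc7, and it was at no end of a coding gene. The peak at 44879845 to 44882134 reached 3.85 and was with 2290 bp the widest in the body. The peak at 44885519 to 44886761 reached 2.65. No body peak of Zcchc7 had a q-value above 0.05, and the same held at Pou2f1 and Pou2f2. With only 4 body peaks at Zcchc7, no contrast with Pax5 can be drawn from this. Whether any of these peaks acts on Pax5 was not measured.

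The flanks of Zcchc7 held 19 peaks, of which 16 lay on the side of Pax5 and belonged to its start or body. The 3 on the other side were at ends of other coding genes. A peak at Grhpr had a signal value of 2.501, and those at Zbtb5, from 45010353 to 45012439 and from 45012709 to 45013560, had 7.53 and 8.97. Over the 607 kb from 100 kb beyond Pax5 to 100 kb beyond Zcchc7 there were 39 peaks, and 31 of them (79.5%) were at the start or in the body of Pax5. Of the 39, 9 had a −log10 q of at least 5 and 10 a q-value above 0.05. In the flanks of Pax5 lay only 2 peaks, both already described at Zcchc7.

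Pou2af1, gene ID 18985, chromosome 9 from 51213690 to 51240079, had the strongest end peak of the 5 genes. It ran from 51210872 to 51217766, with a signal value of 11.3 and a −log10 q of 42.9. A stronger one was found at 3.01% of the genes that carried an end peak. Like that at Pax5 it was broad, 6895 bp, and wider than 99.4% of peaks at ends. It reached from 2.82 kb ahead of the start to 4.08 kb into the gene. Its summit lay 1.15 kb inside the gene, past the 1 kb window, so by its summit alone it would count as a body peak.

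Beyond this peak the gene had 3 weak body peaks. From 51218073 to 51218775 the signal value was 2.94, from 51224195 to 51226310 it was 2.54, and from 51226625 to 51227050 it was 2.51. None reached a −log10 q of 5, and the last had a q-value above 0.05. All 3 summits lay nearer to the start of the gene than to its far end. The gene is short, 26.4 kb, and peaks covered 27.7% of it, a larger share than at the other 4 genes. The flanks had a single peak, from 51182654 to 51185014, 2361 bp wide with a signal value of 2.71 and its summit 30.2 kb ahead of the start. None of the 4 neighbouring coding genes with an end within 100 kb (Btg4, Gm32742, Colca2 and 1810046K07Rik) had a peak at an end or in the body.

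Pou2f1, gene ID 18986, chromosome 1 from 165865150 to 166002749, had a pair of peaks around its start. The stronger, from 165999809 to 166002557, was 2749 bp wide with a signal value of 10.4 and a −log10 q of 37.5, and 4.74% of genes with an end peak had a stronger one. It lay inside the gene with its summit 1.22 kb from the end of the gene span, again past the 1 kb window. The weaker, from 166003036 to 166003349, was 314 bp wide with a signal value of 3.49 and lay outside the gene. The gap between them held the promoter window printed above.

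The promoter table lists 3 starts for Pou2f1. A body peak from 165934428 to 165935873, with a signal value of 3.76, lay over the start 67.8 kb into the gene and covered all 250 bases of its window. That window had 2 CpG and 40% G or C, in contrast to the CpG-rich first start. The start 49.7 kb into the gene had no peak within 1 kb, and the nearest was 17.2 kb away. The other body peak, at 165976401 to 165977506, reached a signal value of 3.09 and lay at none of the listed starts. No peak lay in the 100 kb flanks, and the 3 coding neighbours, Creg1, Cd247 and Dusp27, had none at an end or in the body. Cd247, a T-cell receptor subunit gene, overlaps the far end of Pou2f1.

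**Figure D4:**
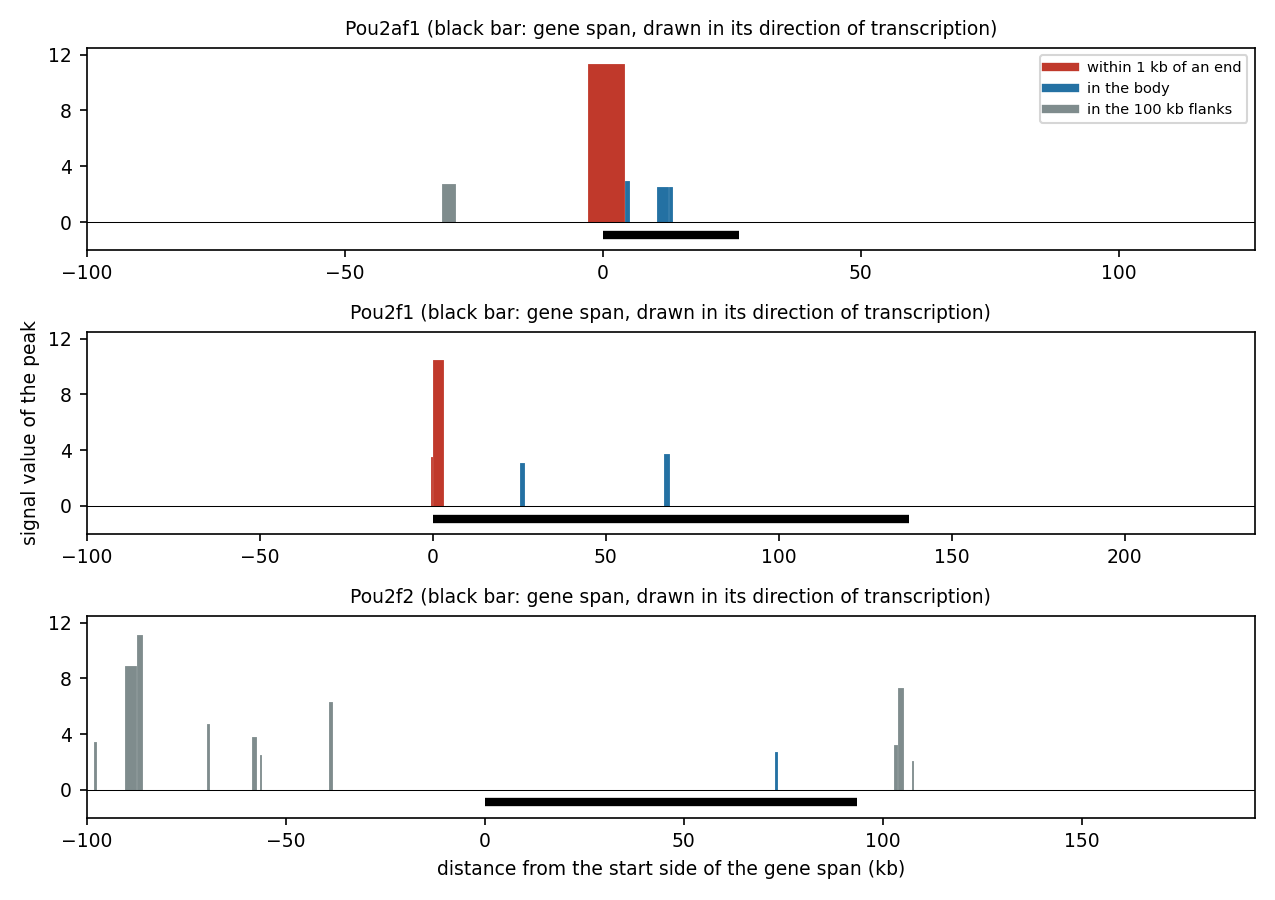
Peaks at Pou2af1, Pou2f1 and Pou2f2, with distance in kb from the start side of the gene span on the horizontal axis and signal value on the vertical axis. Blocks span the peak widths, red at ends, blue in bodies, grey in flanks, and black bars are the genes; Pou2af1 and Pou2f1 have their strongest peak at the start, with 11.3 and 10.4, and Pou2f2 has its strong peaks only in the flanks, up to 11.1.

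Pou2f2, gene ID 18987, chromosome 7 from 25087350 to 25180797, differed from the others in having no peak at an end. Its only body peak, from 25107325 to 25107882, was 558 bp wide with a signal value of 2.72 and a −log10 q of 1.67. The promoter table lists a single start, 48.3 kb inside the gene span, with 12 CpG and 64.8% G or C in its window. No peak lay within 1 kb of that start either, and the nearest was 24.6 kb away. Peaks covered 0.597% of the gene. No peak at these starts passed the calling, and since the depth is not known, this does not show that H3K27ac was absent.

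The flanks of Pou2f2 held 10 peaks, 7 of which lay at ends of other coding genes. The strongest were at Cic, with signal values of 11.1 (25266863 to 25268067) and 8.88 (25268303 to 25271067). A peak shared by ends of Grik5 and Zfp574, from 25075770 to 25076966, had 7.34, and one shared by Dedd2 and Zfp526 had 6.30. Erf had 4.71, and the peaks at Gsk3a had 2.54 and 3.82. Of the 8 coding neighbours 7 carried an end peak. Thus Pou2f2 lacked a called peak at its ends within a stretch of genes that had them. The 3 flank peaks at no coding gene end had signal values of 2.06, 3.22 and 3.43.

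Over the 5 genes, the end peaks had a higher median signal value and a larger median width than all end peaks of the list. The 5 end peaks had a median signal value of 8.45 and a median width of 2749 bp, where all peaks at ends had 4.25 and 974 bp. The 40 body peaks, 30 of them at Pax5, had a median signal value of 2.77 and a median width of 1060.5 bp, where all peaks at no end had 2.94 and 789 bp. By gene, the median signal value of body peaks was above 2.94 at Zcchc7 (3.29) and Pou2f1 (3.43) and below it at the others, and the median width was below 789 bp at Pou2af1 (703 bp) and Pou2f2 (558 bp). The small peak ahead of Pou2f1, 314 bp wide with a signal value of 3.49, was the exception among the end peaks. In a bulk list, strong acetylation in few cells and weak acetylation in many cells cannot be told apart.

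**Figure D5:**
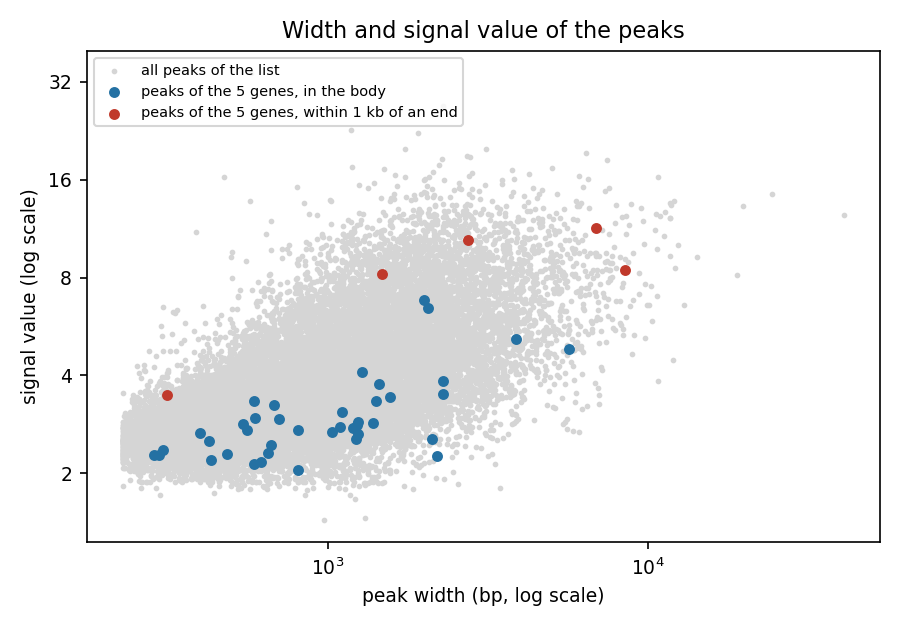
Signal value (vertical axis, log scale) against width in bp (horizontal axis, log scale) for all 22948 peaks in grey, with the end peaks of the 5 genes in red and their body peaks in blue. The red points of Pax5 (8456 bp, 8.45) and Pou2af1 (6895 bp, 11.3) lie among the widest peaks, and most blue points lie below a signal value of 4.

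The other genes of these families had few peaks at ends or in bodies. Of the 9 Pax genes, only Pax5 had either, beside a background of 36.2% for ends and 16.6% for bodies over all protein-coding genes. Of the 14 POU genes, Pou2f1 and Pou6f1 had one at an end, Pou6f1 with a signal value of 3.95, and Pou2f1 and Pou2f2 had one in the body. Several others had peaks in their flanks, such as Pou2f3 and Pax4 with 6 each.

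Among 11 regulators that act with or before Pax5, 9 had a peak at an end (36.2% of all protein-coding genes). All 11 had one in the body (16.6% of all), with a median of 7 body peaks. Gene length was not taken into account in these shares. The end peaks ran from a signal value of 3.46 at Irf4 to 12.4 at Foxo1 and Ebf1. Ikzf3, encoding Aiolos, and Irf8 had none at an end, but body peaks of 4.22 and 4.48. A list drawn up as Pax5-activated genes held 12, and whether each of them needs Pax5 was not measured. Of these 12, 10 had a peak at an end, again beside 36.2% of all protein-coding genes, and Cd22 and Cr2 did not. These ran from 2.69 at Cd79b, a B-cell receptor subunit, to 13.6 at Blnk, its adaptor. Blnk, with 8, and Lef1, with 10, were the only ones with body peaks, 2 of 12 beside 16.6% of all. Many of these genes had been seen to carry peaks in earlier work on the list, so these counts are no independent evidence.

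Of 5 genes that Pax5 represses, 2 had a peak at an end, Flt3 with 6.58 and Grap2 with 2.75, while Csf1r, Notch1 and Cd28 had none. Flt3, a cytokine receptor of early progenitors, also had a body peak of 13.3, above every peak at or in the 5 genes described here. The share of 2 in 5 was close to the 36.2% of all protein-coding genes. Among genes that depend on Oct-2 or OCA-B, Btk carried an end peak of 5.59, and Cd36, Il5ra and Spib had none.

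Marker genes of the sorted cells and of others were read the same way, beside the 36.2% of all protein-coding genes with an end peak. Among surface genes of stem cells and progenitors, Kit, Flt3 and Slamf1 had a peak at an end, while Ly6a, which encodes Sca1, Cd34 and Procr did not. Among genes of committed or mature B cells, Cd79a (4.40) and Cd79b (2.69) had one, and Cd22, Ms4a1 and Fcer2a did not. None of these B-cell genes had a peak in the body, beside 16.6% of all protein-coding genes. At ends, none of 4 T-cell genes found in the gene table and none of 5 granulocyte and monocyte genes had a peak, and of 4 erythroid genes only Hbb-bt had one. The part of B-lineage cells among the sorted cells in the peaks at Pax5 and Pou2af1 was not tested.

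Genes with the most similar pattern were found from the numbers of peaks at ends, in the body and in the flanks, the strongest signal value and the gene length, as a distance in units of SD over all protein-coding genes in this list. Nearest to Pax5 were Sipa1l1 (36 body peaks), Trak1 (24) and Trio (26), at distances of 0.60, 0.61 and 0.63. For Zcchc7 they were E130308A19Rik, Ece1 and Agpat4, for Pou2af1 Anp32a, Tor1aip2 and Fzd6, and for Pou2f1 Arhgap21, Vps13a and St8sia4. Pou2f2 had the closest matches, Tbc1d16 and Nin at 0.12 and 0.13, each with 1 body peak and none at an end, followed by Myh10 at 0.31.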

How the data were processed

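The members and gene lists were chosen with earlier results of these data known. The submitters' processing notes name BWA, MACS2 and the build mm10, without versions or roles. The deposited list gives, for 4 H3K27ac libraries over 1 input, each peak's signal value, read as the authors' enrichment ratio, the authors' −log10 p and −log10 q (lowest −log10 p 2.01), and a deposited display score, which was not used. The list is labelled as the optimal peaks by overlap, and the filters behind that label are not given in the sources used here. Total depth is unknown, so the effect of depth on the weakest peaks was not measured. Gene spans, both ends and listed starts came from RefSeq tables of GRCm38.p6, the assembly that mm10 names, and all 5 members matched by symbol. A peak was at an end when any base lay within 1 kb of an end, otherwise in the body when it overlapped the gene, otherwise in the flank when within 100 kb. Counts were made with Python 3.11.15 and pandas 2.3.3, tested on simulated peaks. No test between groups was possible with 1 list. Peaks named by position were all end peaks, and per member the strongest 3 and the widest in the body and the strongest 3 in the flanks, with others added after their values were seen. Pathway and marker lists, the distance between gene patterns (leaving out genes within 200 kb of a member) and the motifs were written down together, and the shortened octamer was added later. Some genes of these lists are not reported here. Alternatives were a window of 2.5 kb, stricter lists, summits in place of overlap, peaks merged within 1 kb, a flank of 50 kb and other gene sets. A count was taken as stable when it stayed within 1.5 times, and a share when it stayed within its 95% Wilson interval.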

Additional observations from a re-analysis of the deposited data

How the results depend on the processing

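Of 84 recomputed values, 49 were stable and 35 moved. The members with a peak at an end were 4 with 2.5 kb, both q-value limits, merging and listed starts, and 3 by summit, and the end peaks were then also 3, because the summits at Pou2af1 and of the stronger Pou2f1 peak lie past 1 kb. When −log10 q had to reach 5, the 40 body peaks fell to 5, the 32 flank peaks to 13 and the 39 peaks over Pax5 and Zcchc7 to 9, and the median signal value of end and body peaks went from 2.84 to 6.82, since fewer and stronger peaks are counted. A signal value of at least 4, chosen after the data were seen, left 5 body peaks. Merging within 1 kb left 24 body peaks, 20 flank peaks and 24 over Pax5 and Zcchc7. A flank of 50 kb left 8 flank peaks. The 36.2% of protein-coding genes with an end peak (35.6% to 36.9%) became 24.0% with −log10 q at 5 or above, 39.3% in a window of 2.5 kb, 34.4% with q at or below 0.05, 20.9% over all annotated genes and, chosen after the data were seen, 38.0% within 1 kb of listed starts.

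No paired analysis was possible because the 4 H3K27ac libraries and the input share 1 set of values, and no library was left out for the same reason.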
